A study of Homo sapiens with 10 samples.

Results

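Expression of 10 growth factor receptor and adaptor genes was measured in spheroids labeled as T47D, a human breast cancer cell line of the luminal type, with or without SAMHD1. The genes are the ERBB receptors EGFR, ERBB2, ERBB3 and ERBB4, the FGF receptors FGFR1, FGFR2 and FGFR4, the IGF1 receptor IGF1R and the insulin receptor substrates IRS1 and IRS2. They were chosen by name, as receptor tyrosine kinases of luminal breast cancer and their IRS adaptors, by a rule that uses no measured value, although earlier results of these data were known when they were chosen. All 10 are among the 13920 genes of the count table.

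RNA was sequenced from 10 spheroid libraries, 4 of wild-type (WT) cells and 6 of SAMHD1 knock-out (KO) cells. SAMHD1 is a dNTP-hydrolyzing enzyme, and the KO cells were made with CRISPR-Cas9 aimed at exon 5 of its gene. The 4 WT libraries come from experiments 10, 11, 15 and 16, the 4 libraries of KO clone A1 from the same 4 experiments, and the 2 libraries of KO clone A2 from experiments 15 and 16. No drug treatment is named for any library. Each KO group is a single clone, so the loss of SAMHD1 and other properties of that clone cannot be told apart. The labels number the experiments but do not say how separate the cultures were, so the p-values below measure the spread between these samples.

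ERBB, FGF and IGF1 receptors sit in the cell membrane and act as pairs whose kinase domains phosphorylate each other once a growth factor has bound. The phosphorylated sites recruit docking proteins, among them the IRS proteins, which pass the signal to the PI3K-AKT and RAS-MAPK pathways. In luminal breast cancer these receptors are known as alternative growth inputs beside estrogen, ERBB2 is a drug target where its gene is amplified at 17q12, and FGFR1 is often amplified.

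The libraries held between 40077369 and 51311482 counts, of which mitochondrial genes took 7.79% to 8.48% in experiments 10 and 11 and 9.05% to 13.9% in experiments 15 and 16. SAMHD1 itself checked the labels. It stood at 49.8 to 56.4 CPM (counts scaled to library size by the TMM method) in the 4 WT libraries, at 22.5 and 23.0 CPM in clone A1 of experiments 10 and 11, at 6.44 and 6.15 CPM in clone A1 of experiments 15 and 16, and at 23.6 and 20.2 CPM in clone A2. Every KO library was thus below every WT library. The level in clone A1 differed between the experiment pairs, with a log2 difference in the A1 effect of -1.81 ± 0.135 (SE, edgeR quasi-likelihood test, Benjamini-Hochberg adjusted p = 1.2e-06), so clone A1 is compared with WT within each pair.

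The cell type label was checked against marker genes, and the data went against it. Of 9 luminal breast markers, 8 are listed, and the keratin KRT19 is not. The estrogen receptor ESR1 lay at 0.183 to 1.59 CPM, the epithelial adhesion genes EPCAM and CDH1 at 0.348 to 1.78 and 0.684 to 2.16 CPM, and KRT8 at 3.10 to 9.07 CPM. PGR, GATA3 and FOXA1 were present at 14.1 to 26.8 CPM, and KRT18 at 36.3 to 60.3 CPM. The basal markers KRT5, KRT14, KRT17 and TP63 are not among the listed genes either. By contrast VIM, CDH2 and ZEB1, genes of mesenchymal cells chosen after their values were seen, lay at 1175 to 1518, 118 to 158 and 57.6 to 70.4 CPM. The samples are therefore called by their labels, and no level below is read as that of a luminal cell.

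ERBB4 and FGFR4 carried the differences between KO and WT described below, and EGFR separated all KO from all WT libraries. The 250 bases before their first annotated start are therefore shown, taken from the RefSeq promoter table (GRCh38.p14). That table had an entry for 8 of the 10 genes. Capitals mark exact matches, on the printed strand or as the reverse complement, to 3 motifs. The GC box was searched as GGGCGG. The E-box was searched in its form CACCTG. The TATA box was searched as TATAAA. The ERBB4 sequence is chr2:212538803-212539052 on the minus strand, FGFR4 chr5:177086665-177086914 on the plus strand and EGFR chr7:55018767-55019016 on the plus strand.
ERBB4: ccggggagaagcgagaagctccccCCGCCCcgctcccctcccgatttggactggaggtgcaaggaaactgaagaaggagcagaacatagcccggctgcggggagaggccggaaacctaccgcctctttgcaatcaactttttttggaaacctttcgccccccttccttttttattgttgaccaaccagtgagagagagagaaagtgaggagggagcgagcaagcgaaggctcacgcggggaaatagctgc
FGFR4: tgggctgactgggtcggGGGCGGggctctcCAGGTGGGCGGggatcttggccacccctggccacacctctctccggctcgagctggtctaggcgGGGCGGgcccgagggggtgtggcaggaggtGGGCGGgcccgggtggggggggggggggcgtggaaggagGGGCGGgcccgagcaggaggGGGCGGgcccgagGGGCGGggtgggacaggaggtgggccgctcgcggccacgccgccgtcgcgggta
EGFR: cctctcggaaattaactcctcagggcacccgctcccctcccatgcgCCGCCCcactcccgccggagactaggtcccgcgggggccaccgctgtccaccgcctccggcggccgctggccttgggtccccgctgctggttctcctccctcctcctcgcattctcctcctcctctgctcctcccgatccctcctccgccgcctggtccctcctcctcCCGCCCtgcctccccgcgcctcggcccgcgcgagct
The ERBB4 window held 1 GC box in sequence of 57.2% GC, the EGFR window 2 in 73.6% GC, and the FGFR4 window 7 in 79.6% GC. Of 35116 RefSeq promoter windows of this length, 42.6% held at least 1 GC box. The CACCTG E-box was found once in the FGFR4 window, where it overlaps a GC box, and in 17.5% of all windows. TATAAA was in none of the 3 windows and in 10.7% of all windows. These matches describe the letters only.

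The levels of the genes were ordered first. In the 4 WT libraries, and per kilobase of the reference transcript so that genes can be compared, FGFR1 and ERBB2 were highest at 17.8 ± 0.559 and 17.5 ± 0.642 CPM per kb (mean ± SD, n = 4). IGF1R and FGFR2 followed at 7.23 ± 0.506 and 7.22 ± 1.11 CPM per kb, and EGFR and FGFR4 at 3.68 ± 0.166 and 3.34 ± 0.188 CPM per kb. Within each of these pairs the 4 libraries overlapped, so their order is not resolved. IRS2 at 2.89 ± 0.178, IRS1 at 1.15 ± 0.150, ERBB4 at 0.855 ± 0.0186 and ERBB3 at 0.269 ± 0.0734 CPM per kb each lay below the gene before them in all 4 libraries. ERBB3, the kinase-impaired partner of ERBB2, rested on only 48 to 98 reads a library. By mean CPM it ranked 12523 of the 13920 listed genes, whereas FGFR1 ranked 2011 and ERBB2 2750.

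**Figure D1:**
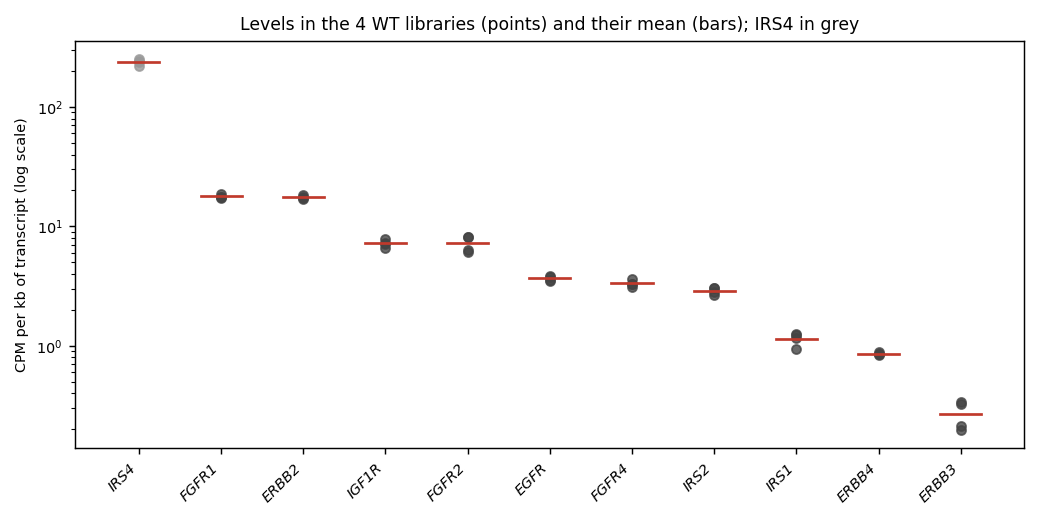
Levels in the 4 WT libraries in TMM-scaled CPM per kb of the reference transcript, on a log axis, with each library as a point and the mean as a bar. FGFR1 and ERBB2 lie near 17.8 and 17.5, ERBB3 near 0.269, and the adaptor IRS4, which is not one of the 10 genes, far above at 237.

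A relative of IRS1 and IRS2 was far more abundant than either. IRS4, an insulin receptor substrate gene on the X chromosome, averaged 1565 CPM over the 10 libraries, more than 99.7% of the listed genes, and 237 ± 13.5 CPM per kb in WT (SD, n = 4). In clone A2 it lay at 1332 and 1412 CPM against 1634 and 1658 CPM in clone A1 of the same experiments. That difference passed the test (log2 fold change -0.26 ± 0.069 SE, edgeR adjusted p = 0.0393), but the call was lost on leaving out any of 8 of the 10 libraries (adjusted p from 0.0606 to 0.342) and held without WT of experiment 10 or 11. Clone A2 against WT did not pass (-0.19 ± 0.069, edgeR adjusted p = 0.0669). It was called in 5 of 15 alternatives, with the experiment as a replicate block (adjusted p = 0.00374), with that pair of experiments alone (0.0278), with DESeq2 (0.0345) and without WT of experiment 10 (0.0174) or 11 (0.0186), and reached an adjusted p of 0.321 without A2 of experiment 15.

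**Figure D2:**
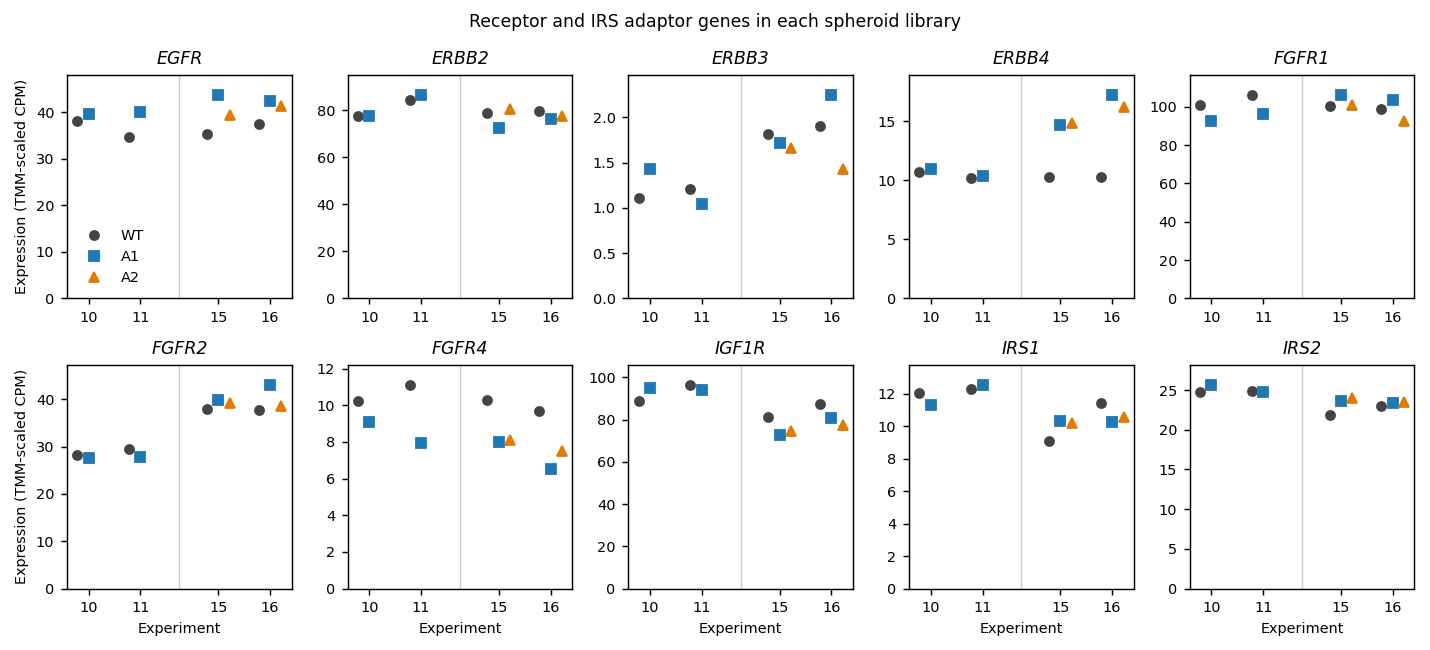
TMM-scaled CPM of the 10 genes (y axis, from 0) in each library, by experiment (x axis), with WT as circles, clone A1 as squares and clone A2 as triangles. ERBB4 is near 10 CPM in WT and 14.6 to 17.2 CPM in both KO clones of experiments 15 and 16, and FGFR4 is lower in every KO library than in any WT library. Over WT and clone A1, FGFR2 and ERBB3 sit higher in experiments 15 and 16.

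The ERBB family was compared next, starting with ERBB4, the neuregulin receptor with an active kinase (NCBI gene 2066, chr2:211375717-212538802 in GRCh38.p14, minus strand, 28 exons). ERBB4 was at 10.7, 10.2, 10.3 and 10.3 CPM in WT of experiments 10, 11, 15 and 16. It was at 10.9 and 10.4 CPM in clone A1 of experiments 10 and 11, at 14.6 and 17.2 CPM in clone A1 of experiments 15 and 16, and at 14.9 and 16.2 CPM in clone A2. In experiments 15 and 16 the KO libraries were thus all higher than WT, while in experiments 10 and 11 clone A1 lay at 1.02 times the WT library of the same experiment. The counts behind these values were 407 to 831 reads a library.

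In experiments 15 and 16 ERBB4 rose by 0.63 on the log2 scale in clone A1 (SE 0.106, 95% interval 0.41 to 0.86, edgeR adjusted p = 0.00158), which is 1.55-fold. In clone A2 it rose by 0.60 (SE 0.106, 95% interval 0.38 to 0.82, edgeR adjusted p = 0.000994), which is 1.51-fold. The clones share their WT libraries, so these are not independent. Between the clones the difference was -0.03 with a 95% interval of -0.25 to 0.18. In experiments 10 and 11 the A1 effect was 0.03 (SE 0.107, 95% interval -0.20 to 0.26, edgeR adjusted p = 0.921). The difference between the 2 A1 effects was itself 0.60 (SE 0.151, edgeR adjusted p = 0.0437), and it lost that call on leaving out any of 8 of the 10 libraries, where adjusted p ran from 0.0534 to 0.158. It kept the call without WT of experiment 10 or WT of experiment 11.

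EGFR, the receptor of EGF and TGFA (NCBI gene 1956, chr7:55019017-55211628, plus strand, 28 exons), was slightly higher in KO. It was at 38.2, 34.7, 35.4 and 37.4 CPM in the WT libraries. The KO libraries were at 39.6 and 39.96 CPM for clone A1 in experiments 10 and 11, 43.7 and 42.3 CPM for clone A1 in experiments 15 and 16, and 39.4 and 41.3 CPM for clone A2. All 6 KO libraries were above all 4 WT libraries, by small ratios of 1.04 to 1.23 within experiments. In the main fit, which does not pair libraries by experiment, EGFR did not pass the threshold in any comparison. The log2 fold changes were 0.13 in clone A1 of experiments 10 and 11, 0.24 (SE 0.077, edgeR adjusted p = 0.0666) in clone A1 of experiments 15 and 16, and 0.15 in clone A2 (SE 0.077, edgeR adjusted p = 0.218). With the experiment as a replicate block, the adjusted p for clone A1 in experiments 15 and 16 was 0.0165, and that for the mean A1 effect of both experiment pairs 0.0122 in place of 0.0676.

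ERBB2, the ligand-less ERBB receptor (NCBI gene 2064, chr17:39688094-39728658, plus strand, 27 exons), lay at 77.3 to 84.1 CPM in WT and 72.4 to 86.5 CPM in KO, and the groups overlapped. Its log2 fold changes ran from -0.09 in clone A1 of experiments 15 and 16 (95% interval -0.25 to 0.07) to 0.09 for clone A2 against clone A1 (95% interval -0.07 to 0.25), and none passed the test. Of 14 genes beside ERBB2 at 17q12, 10 are listed, and GRB7, an adaptor gene next to ERBB2, is not. ERBB3 (NCBI gene 2065, chr12:56080108-56103505, plus strand, 28 exons) lay at 1.11, 1.203, 1.81 and 1.91 CPM in WT of experiments 10, 11, 15 and 16, and its KO values of 1.04 to 2.25 CPM overlapped these. Its intervals were the widest of the 10 genes, from -0.80 to 0.25 on the log2 scale for clone A2 against WT.

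**Figure D3:**
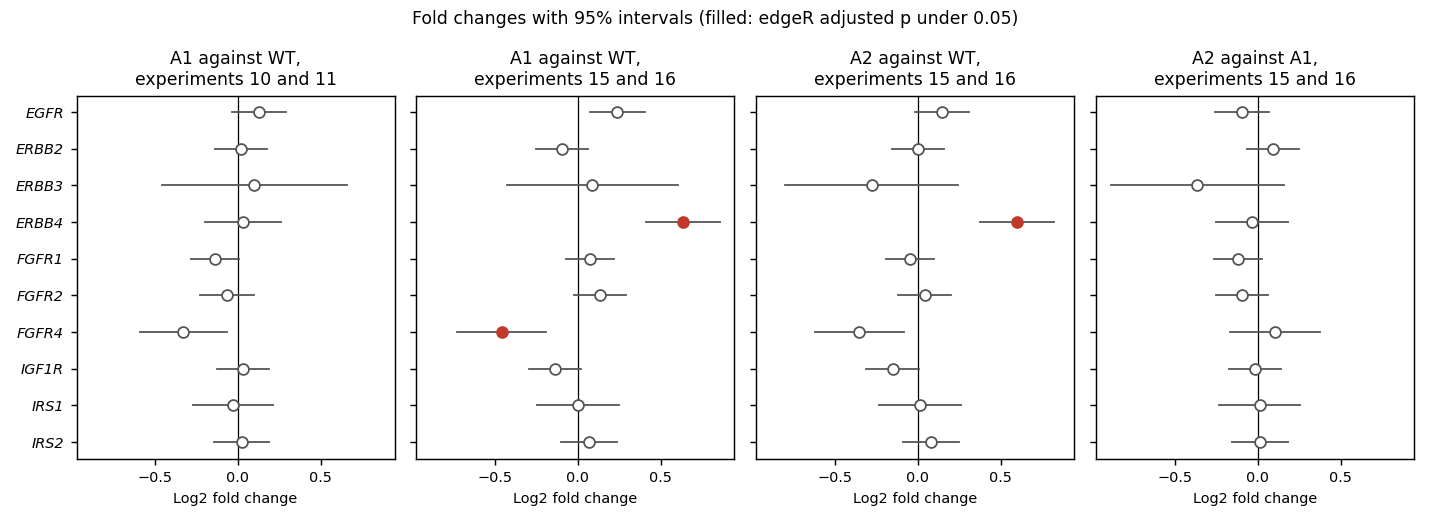
Log2 fold changes (x axis) of the 10 genes with 95% intervals from the edgeR fit in 4 comparisons, filled where the adjusted p is under 0.05. Filled points are ERBB4 in both clones and FGFR4 in clone A1, all in experiments 15 and 16, and the ERBB3 intervals are the widest.

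Among the chosen FGF receptors the difference was in FGFR4, the receptor of FGF19 and other FGFs (NCBI gene 2264, chr5:177086915-177098144, plus strand, 18 exons). FGFR4 was at 10.2, 11.1, 10.3 and 9.69 CPM in the WT libraries. In clone A1 it was at 9.08 and 7.92 CPM in experiments 10 and 11 and at 8.02 and 6.49 CPM in experiments 15 and 16, and in clone A2 at 8.12 and 7.52 CPM. The highest KO library was below the lowest WT library, and within experiments the KO to WT ratios ran from 0.670 to 0.887. These values rest on 283 to 544 reads a library.

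FGFR4 fell by 0.46 on the log2 scale in clone A1 of experiments 15 and 16 (SE 0.127, 95% interval -0.73 to -0.19, edgeR adjusted p = 0.0348). This call was lost without WT of experiment 15 (adjusted p = 0.210), WT of experiment 16 (adjusted p = 0.107) or clone A1 of experiment 16 (adjusted p = 0.273). In clone A2 the change was -0.35 (SE 0.126, edgeR adjusted p = 0.0687, and 0.0258 with the experiment as a replicate block). In clone A1 of experiments 10 and 11 it was -0.33 (SE 0.124, edgeR adjusted p = 0.388). The 2 A1 effects differed by -0.13 with a 95% interval of -0.51 to 0.25, and their mean was -0.39 (SE 0.089, edgeR adjusted p = 0.0206). That mean lost its call without clone A1 of experiment 11 (adjusted p = 0.101), WT of experiment 15 (adjusted p = 0.0971) or clone A1 of experiment 16 (adjusted p = 0.104).

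FGFR1, with ERBB2 the most abundant of the 10 genes per kb in WT (NCBI gene 2260, chr8:38411143-38468635, minus strand, 18 exons), lay at 98.9 to 106 CPM in WT and 92.3 to 106 CPM in KO. Its log2 fold changes, from -0.14 (95% interval -0.28 to 0.01) in clone A1 of experiments 10 and 11 to 0.07 (95% interval -0.07 to 0.22) in clone A1 of experiments 15 and 16, did not pass the test. FGFR2 (NCBI gene 2263, chr10:121478330-121598458, minus strand, 18 exons) differed more between the experiments than between the genotypes. It was at 28.3 and 29.6 CPM in WT and 27.6 and 27.8 CPM in clone A1 of experiments 10 and 11, and at 37.7 to 43.0 CPM in all 6 libraries of experiments 15 and 16. In experiments 15 and 16 its changes against WT were 0.13 in clone A1 and 0.04 in clone A2, and neither passed the test.

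IGF1R, the receptor of IGF1 and IGF2 (NCBI gene 3480, chr15:98648539-98964530, plus strand, 21 exons), was at 81.3 and 87.3 CPM in WT of experiments 15 and 16. The KO values there were 72.7 and 80.9 CPM in clone A1 and 74.6 and 77.3 CPM in clone A2, all below WT. The log2 differences were -0.14 for clone A1 and -0.15 for clone A2, each with an SE of 0.075, and neither value passed the edgeR test (adjusted p = 0.307 and 0.192). In experiments 10 and 11 WT was at 88.7 and 96.4 CPM and clone A1 at 95.2 and 94.0 CPM, which overlap.

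The adaptors IRS1 (NCBI gene 3667, chr2:226731312-226799820, minus strand, 2 exons) and IRS2 (NCBI gene 8660, chr13:109752695-109786583, minus strand, 2 exons) dock PI3K and GRB2 to the insulin and IGF1 receptors. IRS1 lay at 9.10 to 12.3 CPM in WT and 10.2 to 12.6 CPM in KO, and IRS2 at 21.8 to 24.8 CPM in WT and 23.4 to 25.6 CPM in KO. Both genes overlapped between the genotypes. In experiments 15 and 16 the IRS1 effects were 0.00 and 0.01 in clones A1 and A2, with 95% intervals of -0.25 to 0.25 and -0.23 to 0.26. The IRS2 effects were 0.07 and 0.08, with intervals of -0.10 to 0.24 and -0.09 to 0.25.

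Over the whole set, 2 of the 10 genes were called in clone A1 against WT in experiments 15 and 16, where 8.24% of all 13920 genes were called, and 1 in clone A2 against WT, where 16.4% were. With so few genes, both counts lie within about 1 gene of what that background gives, so neither is a result about the genes as a group. With the experiment as a replicate block 3 and 2 of the 10 were called, against 17.3% and 26.4% of all genes. In clone A1 of experiments 10 and 11 none of the 10 was called by edgeR, against 0.194% of all genes, or by DESeq2, against 0.453% of all genes, and 1 of the 10, FGFR4, was under 0.05 without adjustment, as were 10.6% of all genes. In clone A2 against clone A1, none of the 10 was called by edgeR, against 4.14% of all genes, or by DESeq2, against 4.91% of the genes it tested. None of the 10 was under 0.05 there without adjustment in edgeR, where 16.2% of all genes were. For the mean A1 effect of both pairs 2 of the 10 were called, ERBB4 at 0.33 and FGFR4 at -0.39, against 4.3% of all genes, and for the difference between the A1 effects 1 of 10 against 2.5%. Neither the calls for the mean nor that for the difference held in every alternative.

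The overlap of single libraries was counted as well. EGFR and FGFR4 were the 2 of 10 genes whose 6 KO and 4 WT libraries did not overlap, against 1.51% of all genes. Within experiments 15 and 16 the 4 KO and 2 WT libraries did not overlap for 6 of the 10, namely EGFR, ERBB4, FGFR2 and IRS2 higher and FGFR4 and IGF1R lower, where 35.4% of all genes do not overlap.

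**Figure D4:**
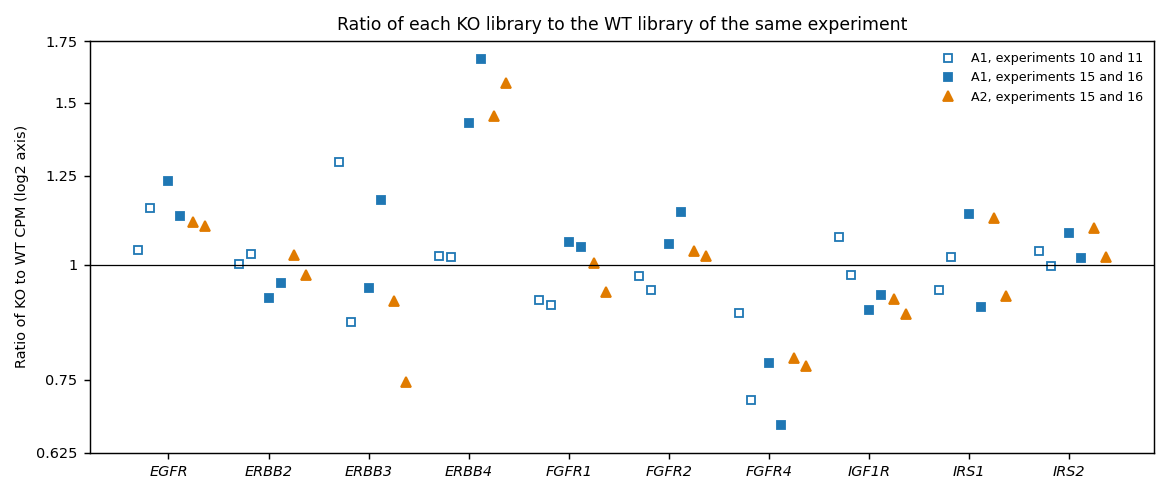
Ratio of each KO library's CPM to that of the WT library of the same experiment (y axis, log2 scale) for the 10 genes, with clone A1 of experiments 10 and 11 as open squares, clone A1 of experiments 15 and 16 as filled squares and clone A2 as triangles. The 4 filled ERBB4 symbols lie between 1.43 and 1.67, its open squares near 1.02, and all 6 FGFR4 symbols lie below 1.

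Apart from genotype, the experiment pairs differed. Over WT and clone A1, 4 of the 10 genes did not overlap between experiments 15 and 16 and experiments 10 and 11, where 34.1% of all genes do not. ERBB3 and FGFR2 were higher in the later pair, with mean ratios of 1.61 and 1.40, and IGF1R and IRS2 lower, with ratios of 0.861 and 0.919. The share of mitochondrial counts moved with the pair in the same libraries, and its part in these differences was not tested.

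The levels of marker genes of breast and other cell types were set beside these results. The paper describes its spheroids as seeded from tumor cells, with blood cells added only in co-cultures. The sums below are therefore levels of genes, not of cell types. In experiments 15 and 16 the summed CPM of the 8 listed luminal markers was 113 and 115 in WT, 106 and 108 in clone A1 and 102 and 106 in clone A2, and that of the 2 listed of 6 fibroblast markers (COL1A1 and COL3A1) was 18.8 and 20.4 in WT and 11.7 to 13.7 in KO. Within these sums single genes moved, and not in the same direction. FOXA1 was higher in clones A1 and A2 (0.47 and 0.32 on the log2 scale, edgeR adjusted p = 0.00363 and 0.0217), and KRT8 was lower (-0.70 and -0.97, edgeR adjusted p = 0.0179 and 0.00104). COL3A1 was lower (-1.66 and -2.16, edgeR adjusted p = 6.8e-06 and 3.6e-07), while COL1A1 was not called in either clone. In experiments 10 and 11, where no receptor gene was called, the luminal sum was 121 and 130 in WT against 108 and 118 in clone A1, and the fibroblast sum 25.8 and 26.3 against 18.6 in both, with KRT8 alone of these genes called (-0.94, edgeR adjusted p = 0.0282). The part of these genes in the receptor differences was not tested. The fibroblast markers DCN, LUM and PDGFRB, the endothelial markers PECAM1 and CDH5 and the immune markers PTPRC, CD3E and ITGAM are not listed. The summed levels of their listed markers reached at most 1.92 CPM for endothelium (2 of 4 genes) and 3.71 CPM for immune cells (3 of 6 genes), and that of the 2 listed of 6 basal markers ran from 35.9 to 71.5 CPM. In bulk RNA, fewer cells of a kind and less RNA per cell cannot be told apart. Without clone A1 of experiment 15, the library with the highest mitochondrial share, the ERBB4 and FGFR4 effects of clone A1 in experiments 15 and 16 were 0.74 and -0.62 on the log2 scale (edgeR adjusted p = 0.00402 and 0.0431).

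To see whether a receptor gene moved alone or with its chromosomal surroundings, the listed genes that start within 5 Mb of it were set beside it. Around ERBB4 the median of 29 genes was -0.01 in clone A1 and -0.04 in clone A2 of experiments 15 and 16, against 0.63 and 0.60 for ERBB4 itself. Around FGFR4 the median of 80 genes was 0.03 and 0.00, against -0.46 and -0.35, and around EGFR that of 16 genes was 0.05 and 0.01. ERBB4 was farther from 0 than 96.6% and 100% of its neighbors in clones A1 and A2, FGFR4 than 96.2% and 88.8%, and EGFR than 100% and 56.25%. These genes were singled out for their changes, so a place far from 0 among neighbors partly follows from that choice. The 19 genes around IGF1R had medians of -0.19 and -0.23, of which 3 and 8 were called lower, against -0.14 and -0.15 for IGF1R. The 52 genes around FGFR2 had medians of 0.15 and 0.20, with 7 and 17 called higher. DNA copy number was not measured.

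**Figure D5:**
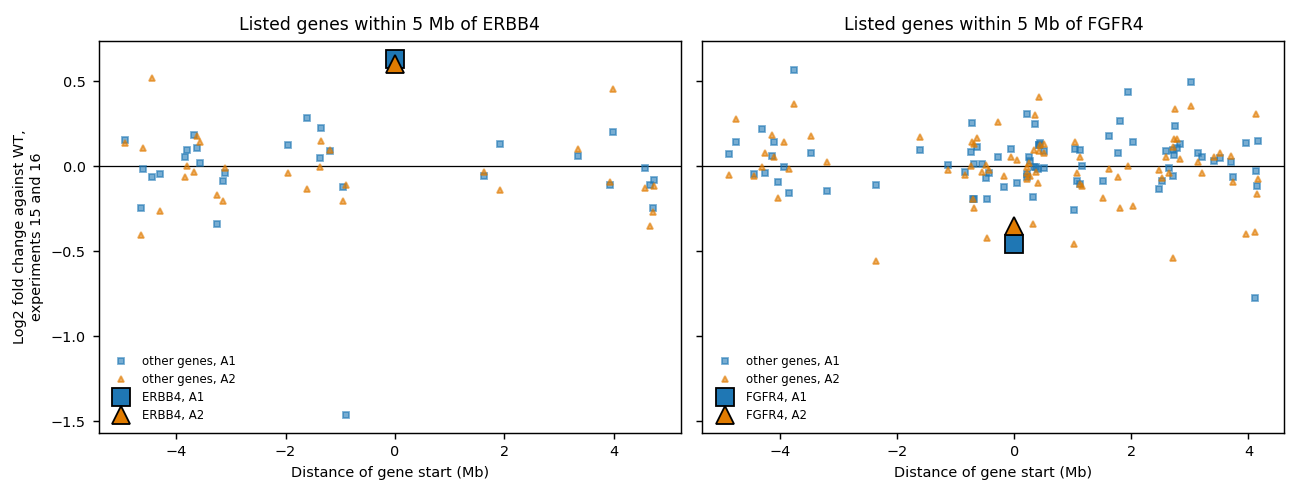
Log2 fold changes against WT in experiments 15 and 16 (y axis) of the listed genes within 5 Mb of ERBB4 (left) and FGFR4 (right), by distance of the gene start (x axis), with clone A1 as squares and clone A2 as triangles and the named gene as the large symbols at 0. ERBB4 lies near 0.63 and 0.60 and FGFR4 near -0.46 and -0.35, while the medians of the surrounding genes lie between -0.04 and 0.03.

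The ligands of these receptors were examined in the same way, all in experiments 15 and 16. Beside the called genes of each list below stand 8.24% of all genes called by edgeR in clone A1 and 16.4% in clone A2. No list was tested as a set. Of 11 ERBB ligand genes, 7 are listed (AREG, EREG, EPGN and NRG3 are not). In clone A1 none of the 7 was called by edgeR or DESeq2, and 2 were under 0.05 without adjustment, as were 22.5% of all genes. In clone A2 EGF alone was called by edgeR, though not by DESeq2, and it was lower (0.314 and 0.469 CPM against 0.807 and 1.23 CPM in WT, log2 fold change -1.38 ± 0.358 SE, edgeR adjusted p = 0.0147). Of 25 genes for FGF ligands and other FGF receptors, 12 are listed, of which FGF9 and FGF11 rose in clone A1, these and FGF2, FGF12 and FGFR3 in clone A2, and none fell. FGF9, a secreted FGF, rose in both, from 3.71 and 4.27 CPM in WT to 7.20 and 6.77 CPM in clone A1 and 6.68 and 6.07 CPM in clone A2 (log2 fold changes 0.80 and 0.67, edgeR adjusted p = 0.00272 and 0.00443). FGF11, a gene of the intracellular FGF group, also rose in both (0.53 and 0.40), and FGF12 of the same group in clone A2 (0.44). The list's median was 0.09 in clone A1 and 0.21 in clone A2, against 0.00 and 0.01 over all genes.

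Of 16 genes of the insulin and IGF system outside the chosen 10, 11 are listed, of which IGFBP2 and STC2 rose and IGFBP4 fell in clone A1 and none was called by edgeR in clone A2, where 3 were under 0.05 without adjustment, as were 29.4% of all genes, and DESeq2 called IGF2R. IGFBP4, an IGF-binding protein gene, fell by 0.87 on the log2 scale in clone A1 (4.00 and 3.99 CPM against 7.64 and 7.02 CPM in WT, edgeR adjusted p = 0.00201). In clone A2 it was at 8.03 and 5.97 CPM, a change of -0.07, and the clones differed by 0.81 (edgeR adjusted p = 0.00353). STC2, whose product inhibits the IGFBP4 protease PAPPA, rose by 0.57 in clone A1 (edgeR adjusted p = 0.0419) and showed 0.37 in clone A2 (edgeR adjusted p = 0.127).

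Of 18 docking and adaptor genes, 17 are listed, of which GRB10 rose in both clones (0.22 and 0.30) and GAB1 and SH2B1 in clone A2 (0.35 and 0.31). GRB10 is an adaptor that restrains insulin and IGF1 receptors, whereas GAB1 and SH2B1 carry receptor signals onward. All 24 PI3K-AKT genes are listed, of which 2 were called in clone A1 and 5 in clone A2, AKT2 among the lower ones. PIK3R2, a regulatory subunit gene of PI3K, fell by 0.32 and 0.49 (edgeR adjusted p = 0.0125 and 0.000217), TSC1, a brake on mTOR, rose by 0.31 and 0.37, and PDPK1, the kinase that activates AKT, rose by 0.42 in clone A2. The 159 listed genes within 5 Mb of TSC1 had medians of 0.23 and 0.35, with 59 and 88 called higher, and the 138 around PIK3R2 had -0.18 and -0.14, with 24 and 32 called lower. In clone A2 the median was 0.26 around SH2B1, with 39 of 106 genes called higher, and 0.13 around PDPK1, with 34 of 147. The list's medians of 0.01 and -0.01 were close to those of all genes.

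All 18 RAS-MAPK genes are listed. In clone A1 none was called by edgeR or DESeq2, and 4 were under 0.05 without adjustment, beside the 22.5% of all genes. Of 23 negative regulators of receptor signaling, 22 are listed, of which SPRY2 rose in both clones (0.60 and 0.45, edgeR adjusted p = 0.00135 and 0.00452) and DUSP5 in clone A2 (0.39). SPRY2 restrains RAS-MAPK signaling and DUSP5 removes phosphate from ERK. The 13 genes around SPRY2 had medians of 0.59 and 0.57 beside its own 0.60 and 0.45, and the 26 around DUSP5 a median of 0.26 in clone A2.

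All 10 genes of the ERK output list are listed, of which SPRY2 and ETV5 rose and DUSP4 fell in both clones and CCND1 fell in clone A2. ETV5, a transcription factor gene induced by FGF signaling, was at 5.04 and 5.67 CPM in WT, 7.40 and 7.99 CPM in clone A1 and 8.12 and 8.79 CPM in clone A2 (log2 fold changes 0.52 and 0.66, edgeR adjusted p = 0.0429 and 0.00645). The list's median was 0.20 in clone A1 and 0.01 in clone A2. In the 17q12 list IKZF3, a lymphoid transcription factor gene, fell in both clones (by 0.98 and 0.75) and GSDMB, a gasdermin gene, in clone A2 (by 0.77), while ERBB2 beside them was not called. Counted once each, 12 of the 128 listed genes of these 9 lists were called in clone A1 and 23 in clone A2 of experiments 15 and 16, beside 8.24% and 16.4% of all genes. In clone A1 of experiments 10 and 11 none of the 128 was called by edgeR or DESeq2, and 10 were under 0.05 without adjustment, beside 10.6% of all genes.

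Finally, the genes most like the 3 of the 10 with the widest range of group means were sought by Pearson correlation of log2 CPM over the 10 libraries. For ERBB4 they were GSE1 (r = 0.976), VAPB (r = 0.972) and CAMSAP1 (r = 0.971). For FGFR2 they were HAND1 (r = 0.986), MAP1LC3B (r = 0.985) and TMEM165 (r = 0.983), and for ERBB3 HOXD13 (r = 0.951), CEBPB (r = 0.932) and RCN1 (r = 0.931). The 10 points share experiments and clones, so these values describe the libraries only.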

How the data were processed

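Stranded mRNA libraries were sequenced as paired reads. The submitters' processing notes name HISAT2, StringTie and GRCh38, and the counting program is not given in the sources used here. The deposited values are raw counts per NCBI gene, which the authors had filtered to genes with no count of 0, so a gene that is not listed may be expressed in some libraries.

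Groups and experiment numbers were taken from the sample titles. The 10 genes and all lists were chosen with earlier results of these data known. Counts were fitted in R 4.3.3 with edgeR 4.0.16 (TMM, robust quasi-likelihood test, 5 groups of clone and experiment pair in 1 fit of all 10 libraries), and Benjamini-Hochberg adjustment covered the whole table of 13920 genes, with calls at an adjusted p under 0.05. Alternatives were DESeq2 1.42.0, RLE factors, only genes averaging 10 or more counts, the experiment as a replicate block, each experiment pair alone, and each library left out. Log2 CPM used a prior count of 2. On simulated data for the A1 effect in experiments 15 and 16, 183 of 200 genes changed 2-fold among 13920 were recovered, with 11 false calls. The changes of the 10 genes were all smaller than 2-fold, and the simulation held no shift between experiments. It therefore does not show how many changes of their size would be missed.

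The titles give WT and KO libraries shared experiment numbers, which were read as pairing them. The main fit did not use this pairing, which entered the tests only through the replicate block among the alternatives. Deviations of WT and clone A1 from their means over 4 experiments correlated at 0.468 to 0.526, which includes the shift between the experiment pairs. Within the experiment pairs the correlations between groups were weak, 0.0844 to 0.151. No 2 libraries agreed within counting noise (45 pairs, chi-square per degree of freedom at least 6.74). Transcript lengths were those of MANE Select transcripts in GENCODE, and positions those of the RefSeq table for GRCh38.p14, which may differ from the authors' annotation. From each pathway list the 2 called genes with the largest change in each clone against WT in experiments 15 and 16 are named with values. FGF2, FGFR3, IGFBP2, IGF2R, AKT2, DUSP4 and CCND1 are named because a small count holds them, after their values were seen. Some genes of the pathway lists are not reported here.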

Additional observations from a re-analysis of the deposited data

Results flagged for a closer look

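The ERBB4 difference of clone A1 from WT was larger in the later pair of experiments (15 and 16) by 0.60 on the log2 scale (SE 0.151, edgeR interaction term, adjusted p = 0.0437), with 10.9 and 10.4 CPM in clone A1 of experiments 10 and 11 and 14.6 and 17.2 CPM in experiments 15 and 16, beside WT at 10.2 to 10.7 CPM throughout. Both clone A1 libraries were higher than the WT library of the same experiment in each pair, by ratios of 1.02 and 1.02 and of 1.43 and 1.67. SAMHD1 in clone A1 also differed between these pairs. In 22 checks of the 10 genes and SAMHD1 over the 4 WT or the 4 clone A1 libraries, no library stood apart by Dixon's test.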

How the results depend on the processing

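Of 880 log2 fold changes of the 10 genes under the alternatives, 817 kept their direction and side of the threshold, 19 lost and 10 gained a call, and 34 changed sign. The 6 called values never changed sign over 87 alternatives. The ERBB4 calls of both clones against WT in experiments 15 and 16 held in all 15 alternatives each, with adjusted p up to 0.0326 and 0.021. The ERBB4 mean of both pairs lost its call without A1 10 (0.105), A1 11 (0.0558), WT 15 (0.0862), WT 16 (0.0602) or A1 16 (0.105), where a number is the experiment and the value the adjusted p, and FGFR4 in clone A2 gained one without WT 10 (0.0436) or WT 11 (0.0454). EGFR in clone A1 of experiments 15 and 16 gained a call with that pair alone (0.0363) and without WT 10 (0.024) or WT 11 (0.0238), and its mean effect with DESeq2 (0.0434) and without WT 10 (0.0112). The replicate block changed no call of the 10 genes other than those of EGFR and FGFR4 given above. The cause of these shifts was not tested.

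Counts of called genes moved more. With DESeq2 63 were called in clone A1 of experiments 10 and 11 and 533 for the difference between A1 effects. With the replicate block 382 were called in clone A1 of experiments 10 and 11, 2411 in clone A1 and 3673 in clone A2 of experiments 15 and 16, where 2 of the 10 genes were called in clone A2, 1213 for clone A2 against A1, 1970 for the mean A1 effect and 1247 for the difference between A1 effects. With the pair alone 12 were called in clone A1 of experiments 10 and 11 and 1834 in experiments 15 and 16. Leaving out 1 library gave 7 (without A1 10) to 1361 (without WT 10) in clone A1 of experiments 10 and 11, and 343 (without WT 15) to 2000 (without WT 10) in experiments 15 and 16. It gave 1020 (without A2 16) to 3199 (without WT 11) in clone A2, 268 (without A2 16) to 959 (without WT 11) for clone A2 against A1, 183 (without WT 15) to 2283 (without WT 10) for the mean, and 88 (without A1 10) to 1123 (without WT 10) for the difference. Of the 10 genes 1 to 3 were then called in clone A1 and 1 to 2 in clone A2 of experiments 15 and 16, 0 to 3 for the mean and 0 to 1 for the difference.

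Among uncalled values whose sign changed on leaving out 1 library, the log2 fold change in clone A1 of experiments 10 and 11 ran from -0.059 to 0.099 for ERBB2, -0.15 to 0.31 for ERBB3, -0.0082 to 0.069 for ERBB4, -0.033 to 0.094 for IGF1R and -0.10 to 0.043 for IRS1. In clone A1 of experiments 15 and 16 it ran from -0.12 to 0.27 for ERBB3 and -0.15 to 0.18 for IRS1. In clone A2 it ran from -0.029 to 0.030 for ERBB2, -0.11 to 0.020 for FGFR1 and -0.14 to 0.19 for IRS1. Between the clones it ran from -0.15 to 0.088 for ERBB4, -0.038 to 0.27 for FGFR4, -0.092 to 0.064 for IGF1R, -0.014 to 0.034 for IRS1 and -0.0017 to 0.027 for IRS2. For the mean A1 effect it ran from -0.076 to 0.0033 for ERBB2, -0.029 to 0.20 for ERBB3 and -0.088 to 0.076 for IRS1, and for the difference between A1 effects from -0.22 to 0.23 for ERBB3, -0.29 to 0.014 for FGFR4 and -0.11 to 0.21 for IRS1. ERBB3 had at most 98 reads a library, and the part of depth in its spread was not tested.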
